A study of Mus musculus with 4 samples.

Results

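The 8 genes described here encode the core of the MHC class II presentation pathway: Ciita, Cd74, H2-Aa, H2-Ab1, H2-Eb1, H2-DMa, H2-Oa and H2-Ob. The genes were chosen with earlier results of these data known, and their accessible regions then by position alone. Peaks of the 4 deposited ATAC-seq lists that overlapped by at least 1 bp were merged into 97394 regions, and a region belonged to a gene when that gene had the nearest protein-coding RefSeq interval (GRCm38) within 100 kb of its midpoint. This gave 70 regions, of which 41 had their midpoint inside a gene: 17 at Ciita, 10 at Cd74, 9 each at H2-Aa, H2-Ab1 and H2-Eb1, 8 at H2-Oa, and 4 each at H2-DMa and H2-Ob.

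ATAC-seq reads open chromatin through a transposase that cuts accessible DNA and tags it for sequencing. The cells were SMARTA CD4 T cells of the mouse, whose transgenic receptor reads the GP61 peptide. Naive SMARTA cells with TOX (WT) or lacking it (KO) were given to cytoxan-treated mice bearing tumors of B16-GP61, a melanoma line that carries the peptide. On day 11 they were recovered by sorting from lymph nodes draining the tumor. TOX is a DNA-binding HMG-box protein of T cells. The sort took WT cells that were CD4+ Ly5.1+ Ly5.2+ and PD1hi, LAG3hi and CD39hi, and KO cells that were CD4+ Ly5.1+ Ly5.2- and PD1lo, LAG3lo and CD39lo, so genotype, congenic marker and gate cannot be told apart. Each genotype had 2 libraries, KO-1 with KO-2 and WT-1 with WT-2, and pairs of values below follow the replicate number, while runs of 4 values give KO before WT. The labels do not say that these came from separate animals, so the spread between them may be technical, and an exact two-sided permutation test of 2 libraries against 2 cannot give a p below 0.33. The labels give neither the sex, age and strain of the mice nor the deleted part of Tox.

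MHC class II molecules are pairs of an alpha and a beta chain that display peptides from ingested protein to CD4 T cells. B cells, dendritic cells and macrophages carry them as professional antigen-presenting cells, and mouse T cells are known to carry little or none. The chains are made together with the invariant chain Cd74, which fills the groove until H2-DM exchanges its remnant for a peptide, while H2-DO restrains H2-DM. Ciita is the coactivator that switches the set on: it binds no DNA itself and acts through factors that sit on paired elements, the X box and the Y box, just before the start of each gene.

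The promoters of 4 genes are shown because the regions across their starts carry the comparisons that follow. Each is the 140 bases just before the RefSeq start on GRCm38, read 5′ to 3′ on the gene's strand, and capitals mark matches to the X box and Y box letters. H2-Aa encodes the alpha chain of the I-A molecule (chr17:34287824-34287963, minus strand), H2-Eb1 the beta chain of I-E (chr17:34305727-34305866, plus strand), and H2-Ob and H2-Oa the chains of H2-DO (chr17:34238765-34238904 and chr17:34092239-34092378, both plus strand).
H2-Aa: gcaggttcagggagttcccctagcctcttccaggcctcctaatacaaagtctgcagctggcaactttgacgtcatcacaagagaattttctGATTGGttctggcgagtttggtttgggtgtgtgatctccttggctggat
H2-Eb1: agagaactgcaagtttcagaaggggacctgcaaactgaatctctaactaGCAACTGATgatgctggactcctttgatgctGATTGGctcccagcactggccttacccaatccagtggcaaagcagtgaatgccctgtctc
H2-Ob: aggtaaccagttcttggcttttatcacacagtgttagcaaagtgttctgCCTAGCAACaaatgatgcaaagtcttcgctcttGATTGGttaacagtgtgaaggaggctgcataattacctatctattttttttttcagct
H2-Oa: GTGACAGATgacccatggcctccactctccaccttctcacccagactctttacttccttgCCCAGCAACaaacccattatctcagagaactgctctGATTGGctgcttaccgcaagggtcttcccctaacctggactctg

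The RefSeq promoter table, which runs from 250 bases before to 50 after a start, held 6 promoters of 5 members, with 2 starts for H2-DMa. The Y box core, GATTGG on either strand, was in 5 of these 6 promoters and in 16.1% of all 32851 promoters of the table. The X box letters GNNACNGAT were in 3 of 6 against 7.82% of all, and CCTAGNNAC in 1 of 6, that of H2-Ob, against 3.91% of all. The ordered pair CCNNGNNAC then ATTGG on one strand, with 15 to 30 bases between them, was found at H2-Ob with 25 bases between and at H2-Oa with 28 bases between, and in 0.947% of all promoters. These searches overlap, since the pair can hold the same letters as the single boxes. Both strands were searched, and a match describes letters, not binding.

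More regions at the 8 genes had a peak in WT than in KO. A peak was present at 23 and 30 of the 70 regions in KO and 54 and 61 in WT. The WT mean was 57.5 ± 4.95 and the KO mean 26.5 ± 4.95 regions (SD, n = 2 each), a difference of 31 regions with an exact two-sided permutation p of 0.333, the smallest this design can give. In percent of the 70 regions these counts were 32.9% and 42.9% in KO and 77.1% and 87.1% in WT. Over all 97394 regions the same libraries had a peak at 40.9%, 60.0%, 54.4% and 60.2%, so the genotypes overlapped there and did not overlap at the 8 genes.

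A region is called WT-only when both WT libraries list a peak there and no KO library does, and KO-only in the reverse case. Of the 70 regions 21 were WT-only, or 30%, against 8.80% of all regions. None was KO-only, against 1.78% of all regions, and 20 had a peak in every library. The other 29 comprised 8 listed in WT-1, WT-2 and KO-2, 12 in WT-2 alone, 4 in WT-1 alone, 4 in a single KO library and 1 in KO-1 and WT-1. WT-only regions lay at 7 of the 8 genes: 7 of 17 regions at Ciita, 3 of 10 at Cd74, 3 of 9 at H2-Ab1, 3 of 9 at H2-Eb1, 2 of 9 at H2-Aa, 2 of 8 at H2-Oa, 1 of 4 at H2-Ob and 0 of 4 at H2-DMa.

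Each list gives a peak's fold enrichment over the background around it. From this fold and the deposited −log10 p, the height of a peak in whole tags and its local background were recovered for every peak. Heights are compared between libraries as scaled height: the tags of the peak divided by the median tags, in that library, of the 26867 regions with a peak in every library (43 and 62 tags in KO and 65 and 76 in WT). Local background is given as a multiple of the library's genome background, which was 5.11 and 3.29 tags in KO and 5.54 and 6.08 in WT. No control library is among the samples, so a local background can hold tags of the peak itself and of its neighbours. Height and local background are therefore not separate observations. The lists held no peak under 16, 12, 16 and 17 tags in that order of libraries, so a site without a listed peak can still hold tags. Heights and local backgrounds were computed after the first results of these lists had been seen, and they are descriptions with no test.

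The fold enrichment at the 20 regions shared by every library ranked at similar levels in both genotypes, while the peaks themselves were taller in WT. The median percentile of fold within its own list was 60.7 and 66.4 in KO and 68.9 and 68.7 in WT, against 68.3, 77.9, 74.1 and 76.0 over all regions shared by every library. The median height was 35.5 and 48.5 tags in KO and 134.5 and 170 in WT. As scaled height these medians were 0.826, 0.782, 2.07 and 2.24, so both KO libraries were below the typical shared region and both WT libraries above 2 times its level. The median local background was 1.59 and 1.96 times the genome level in KO-1 and KO-2 and 3.24 and 4.03 times in WT-1 and WT-2, whereas over all shared regions it was 1.43, 1.92, 1.57 and 1.65 times.

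Taking WT over KO at each of the 20 regions as a ratio of geometric means, the median ratio of fold was 0.971 (range 0.611 to 1.86). The median ratio of scaled height was 2.44 (range 0.696 to 6.07), against 1.09 over all 26867 shared regions, whose 99th percentile was 2.66. The median ratio of local background was 2.19 (range 0.897 to 4.56), against 0.999 over all, with a 99th percentile of 1.68. In 10 of the 20 regions both WT heights were at least 2 times both KO heights, as in 1.25% of all shared regions, and in 0 of 20 the reverse held, as in 1.31% of all. The local background met the same rule in 10 of 20 regions, against 0.190% of all, and the fold in 0 of 20, against 0.257% of all. These 10 regions were 2 at Cd74, 3 at H2-Aa, 2 at H2-Ab1 and 3 at H2-Eb1, and they are not separate observations. Neighbouring regions can share a background: those of H2-Eb1 from 34304649 and 34305595 both had 7.54 times the genome level in WT-1.

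**Figure D1:**
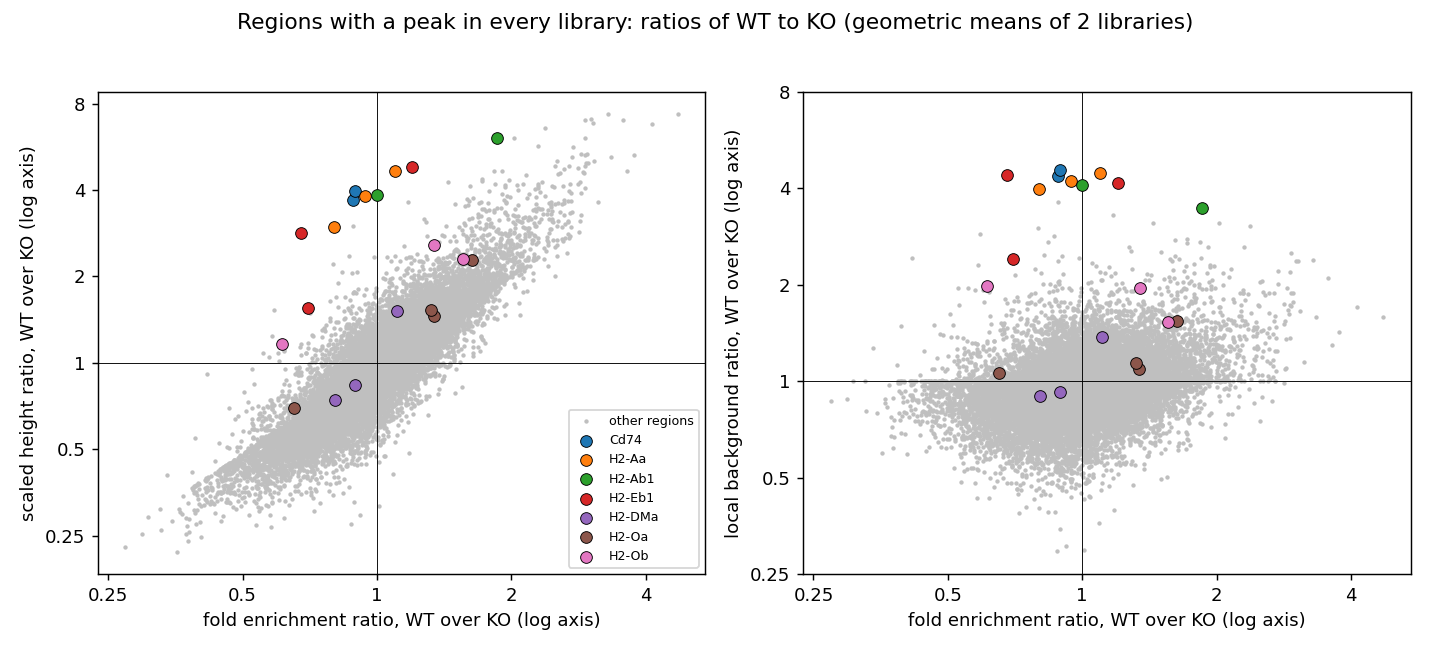
Ratios of WT to KO at the 26867 regions with a peak in every library, with fold enrichment on the horizontal axis and scaled height (left) or local background (right) on the vertical axis, all on log axes. Each grey point is a region and each coloured point one of the 20 regions at 7 of the class II genes; the regions of Cd74, H2-Aa and H2-Ab1 and 2 of the 3 of H2-Eb1 have height ratios from 2.83 to 6.07 at fold ratios from 0.677 to 1.86, and those of H2-DMa and H2-Oa lie within the grey cloud.

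The chains that bind peptide showed the pattern at their gene ends. The region across the start of H2-Aa (chromosome 17, 34287526 to 34288399) reached 54 and 68 tags in KO and 207 and 289 in WT. Its scaled height was 1.26 and 1.10 in the KO libraries and 3.18 and 3.80 in the WT libraries, with no overlap between the genotypes. Its fold enrichment went slightly the other way, at 7.15 and 10.2 in KO and 6.98 and 6.71 in WT, and its local background was 1.31 and 1.75 times the genome level in KO and 5.2 and 6.94 times in WT. A fold divides height by local background, so a site where both are raised together keeps its fold.

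H2-Ab1 encodes the beta chain that pairs with H2-Aa. The region across the lower end of its interval (34262974 to 34263851) had 49 and 55 tags in KO and 250 and 297 in WT, or scaled heights of 1.14, 0.887, 3.85 and 3.91. The percentile of its fold hardly differed, at 71.2, 74.2, 74.0 and 72.0. A further shared region 5424 bp outside the interval (34257538 to 34258067) had 20 and 27 tags in KO and 153 and 241 in WT. Its height ratio of 6.07 was the highest of the 20, and here the fold was also higher in WT (2.94, 4.80, 6.40 and 7.62 in the same order).

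At H2-Eb1 the region across the start (34305595 to 34306303) had 38 and 44 tags in KO and 253 and 285 in WT, or scaled heights of 0.884, 0.710, 3.89 and 3.75. Its local background was 1.66 and 2.41 times the genome level in KO-1 and KO-2, and 7.54 and 9.18 times in WT-1 and WT-2. The neighbouring region before the start (34304649 to 34305331) had 43 and 93 tags in KO and 207 and 287 in WT, and its fold was highest in KO-2, at 11.3 against 4.73 in KO-1 and, in WT, 4.86 and 5.02. The third shared region (34313260 to 34313733), inside the gene, differed less, with 35, 26, 55 and 74 tags and scaled heights of 0.814, 0.419, 0.846 and 0.974.

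The invariant chain gene Cd74 lies on another chromosome and had similar values. The region across the lower end of its interval (chromosome 18, 60803169 to 60804111) had 49 and 75 tags in KO and 271 and 340 in WT, or scaled heights of 1.14, 1.21, 4.17 and 4.47. Its fold was 5.81, 8.32, 6.52 and 5.77 in that order, with the genotypes overlapping, and its local background 1.49, 2.47, 7.35 and 9.55 times the genome level. The shared region inside the gene (60805533 to 60806253) had 26, 29, 134 and 164 tags, and its height ratio was 3.97 at a fold ratio of 0.892.

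**Figure D2:**
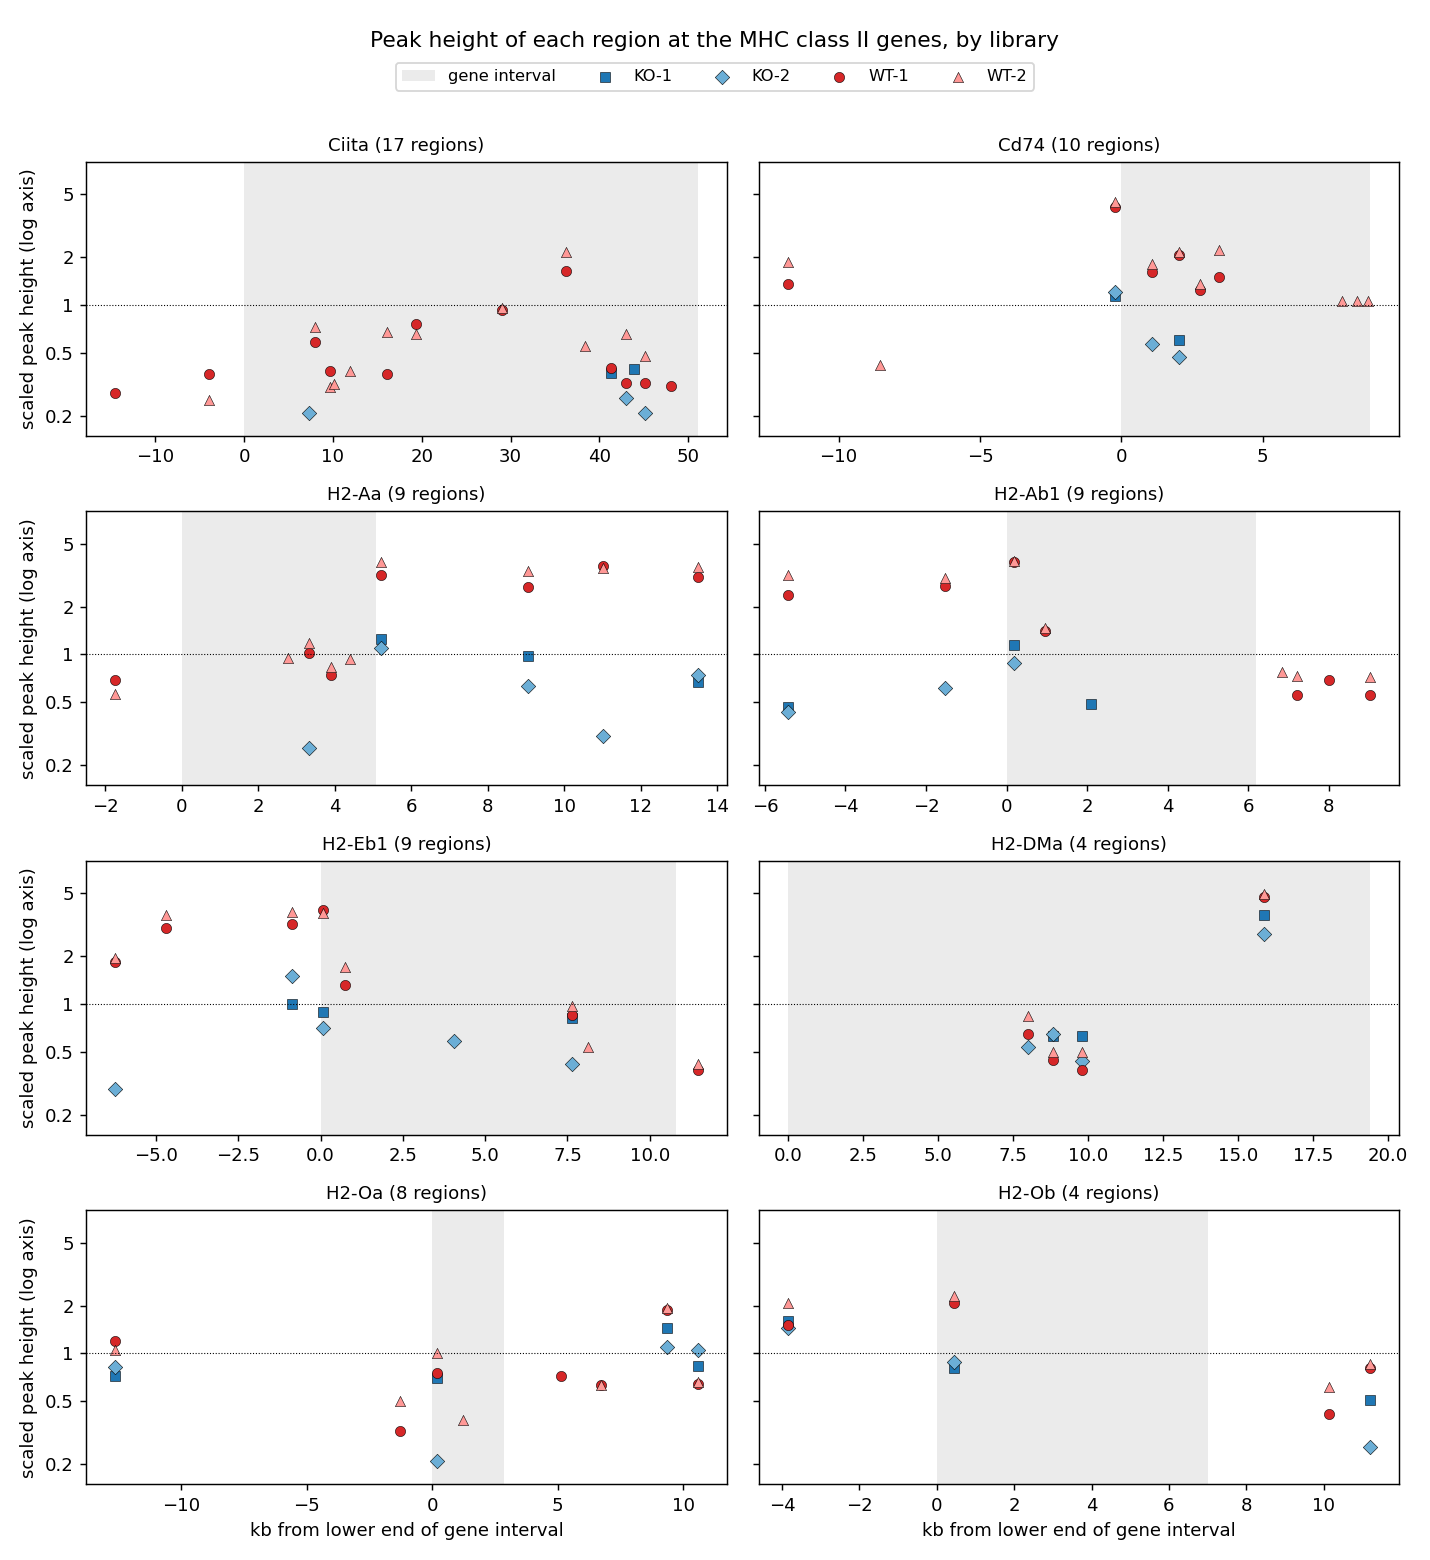
Scaled height of every peak at the 8 genes, 1 panel a gene, against the distance in kb of the region's midpoint from the lower end of the gene interval (grey), with height on a log axis and the dotted line at the median of regions shared by all libraries. A missing symbol is a region with no listed peak in that library; at the shared regions across the start of H2-Aa and H2-Eb1 and across the lower end of Cd74 and H2-Ab1 the WT symbols lie between 3.18 and 4.47 and the KO symbols between 0.710 and 1.26, and many other WT symbols are lower.

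Among the members, the genes that edit the peptide had lower median height ratios: 0.839 for H2-DMa, 1.49 for H2-Oa and 2.30 for H2-Ob. At Cd74 and the chain genes these medians ran from 2.83 at H2-Eb1 to 4.96 at H2-Ab1. Each median covers few regions, and the ranges overlapped, at 1.16 to 2.58 for H2-Ob and 1.55 to 4.82 for H2-Eb1. The split did not extend to H2-DMb2, a beta chain of H2-DM that is no member and was named after its values were seen. Its shared region (34142830 to 34143799) had a height ratio of 2.997. H2-DMa encodes the alpha chain of the peptide exchanger H2-DM, and the RefSeq interval used for it is 19409 bp long. Its strongest peak lay inside this interval (34135140 to 34135997), with 156 and 172 tags in KO and 306 and 373 in WT. The height ratio there was 1.52. Scaled heights there were 3.63, 2.77, 4.71 and 4.91, and the fold lay at percentiles 98.1, 98.8, 99.4 and 98.0, so this peak was among the strongest of every list. The other shared regions of H2-DMa (34128056 to 34128995 and 34129195 to 34129815) had height ratios of 0.742 and 0.839, below 1. Another 3 regions inside H2-DMa also lay inside Brd2, a chromatin reader, and went to that gene with the shorter interval. With a peak in every library, 1 of them (34121922 to 34122906) spans 1 of the 2 RefSeq starts of H2-DMa. No region spans the other start.

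H2-Oa and H2-Ob encode the alpha and beta chain of H2-DO, the inhibitor of H2-DM. The region across the start of H2-Ob (34238401 to 34240282) had 35 and 55 tags in KO and 135 and 176 in WT, or scaled heights of 0.814, 0.887, 2.08 and 2.32, which do not overlap. Across the start of H2-Oa (34092196 to 34092975) the tags were 30, 13, 49 and 77, and the scaled heights of 0.698 in KO-1 and 0.754 in WT-1 were close, with KO-2 at 0.210 and WT-2 at 1.01. None of the 4 shared regions of H2-Oa and 1 of the 3 of H2-Ob had both WT heights at 2 times both KO heights, compared with 2 of 2 at Cd74, 3 of 3 at H2-Aa, 2 of 2 at H2-Ab1 and 2 of 3 at H2-Eb1. The ordered pair of X and Y box letters was matched at H2-Oa and H2-Ob and not at H2-Aa or H2-Eb1. Whether these letters bear on the heights was not tested.

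Ciita, the coactivator, differed in another way: it had no region shared by every library. Peaks were present at 2 and 3 of its 17 regions in KO and 12 and 12 in WT, and the KO peaks were low, from 13 to 17 tags. The tallest WT-only region (chromosome 16, 10515798 to 10516666), inside the gene, had 106 tags in WT-1 and 165 in WT-2, scaled heights of 1.63 and 2.17, and folds of 8.77 and 9.74. Next came 10508645 to 10509436 with 60 and 73 tags, 10499189 to 10499489 with 49 and 50, and 10487545 to 10488415 with 38 and 55. The remaining 3, at 10495831 to 10496320 (24 and 51 tags), 10489599 to 10489807 (25 and 23) and, outside the gene, 10475999 to 10476214 (24 and 19), were the lowest of the 7 in WT-1, and the last 2 were also the lowest in WT-2. No region spanned the lower end of the Ciita interval, and peaks covered 0.887% and 1.37% of the gene in KO and 7.70% and 7.74% in WT.

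The WT-only regions of the other genes included tall sites outside the genes and sites of low fold inside them. At H2-Eb1 the region 4703 bp outside the interval (34300747 to 34301581) had 195 tags in WT-1 and 275 in WT-2. With the same scaled height it would have had at least 129 tags in KO-1 and 186 in KO-2, whose lowest listed heights were 16 and 12. At Cd74 the region 11788 bp outside (60791418 to 60792704) had 88 and 142 tags with folds of 8.07 and 9.21. In contrast, Cd74 regions inside the gene had folds of 1.69 and 1.52 (60806462 to 60806791, 81 and 103 tags) and of 1.96 and 2.34 (60807013 to 60807605, 98 and 169 tags), on a local background of 8.60 to 11.8 times the genome level.

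At H2-Ab1 the WT-only regions were 34264023 to 34264330 (91 tags in WT-1 and 111 in WT-2), 34270316 to 34270548 (36 and 56) and 34272077 to 34272424 (36 and 55). H2-Aa had 34280574 to 34281447 (45 and 43) and 34286547 to 34286728 (48 and 63, with folds of 1.82 and 1.69). Further regions of H2-Eb1 were 34306488 to 34306720 (86 and 130) and 34317196 to 34317440 (25 and 32). H2-Oa had 34090998 to 34091226 (21 and 38) and 34098945 to 34099227 (41 and 48), and H2-Ob 34248868 to 34249206 (27 and 47). All 10 were lower in both WT libraries than the WT peaks across the gene ends of H2-Aa, H2-Ab1 and H2-Eb1.

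Tall WT peaks also stood where KO-2 alone among the KO libraries had a low one. Before the start of H2-Aa (34293355 to 34294169) the height was 233 tags in WT-1, 268 in WT-2 and 19 in KO-2. Outside H2-Ab1 (34261436 to 34261978) it was 175 and 231 in WT and 38 in KO-2, and outside H2-Eb1 (34299454 to 34299823) 120 and 149 in WT and 18 in KO-2. Within 1 kb of the lower end of Cd74, the region 60804764 to 60805137 had 105 and 137 tags in WT and 35 in KO-2. Within 1 kb of the H2-Aa start, 34287058 to 34287218 was listed in WT-2 alone, with 71 tags at a fold of 1.68.

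Whether a KO peak of the same scaled height would have been listed was worked out for each WT-only region, from the lower of the 2 WT heights and the lowest height of each KO list. This was so for 17 of the 21, or 24.3% of the 70 regions, against 4.19% of all regions. The 4 that would not have been listed were the Ciita regions from 10475999, 10489599 and 10495831 and the H2-Oa region from 34090998. The comparison uses height alone, while the caller also weighed the local background.

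By fold, the WT-only regions ranked low. Their median fold percentile was 19.1 in WT-1 and 23.9 in WT-2, against 42.5 and 46.2 for all 8567 WT-only regions. By height they ranked higher than all WT-only regions, with WT median percentiles of 63.0 and 68.1 against 39.9 and 45.9. Their median local background was 2.02 times the genome level in WT-1 and 2.64 times in WT-2, against 1.03 and 1.04 for all WT-only regions. In 9 of the 21 (42.9%) the fold percentile was under 25 in both WT libraries, against 973 of the 8567 (11.4%).

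Local background was raised most at Cd74 and at the 3 chain genes, which neighbour each other at one end of the class II locus. The highest local background at any peak was 8.92 times the genome level in WT-1 and 11.8 times in WT-2 at Cd74, 7.11 and 9.25 times at H2-Aa, 7.09 and 8.62 at H2-Ab1, and 7.54 and 9.27 at H2-Eb1. The same maxima at H2-Oa were 2.78 and 3.05, at H2-DMa 2.87 and 3.56, at H2-Ob 3.52 and 4.33, and at Ciita 2.02 and 2.84. Among the listed KO peaks no gene exceeded 2.22 times in KO-1 or 3.08 times in KO-2, both at H2-Oa. Local background is known only at listed peaks and can hold their own tags. The maxima of WT and KO thus come from unlike sets of sites. Both Cd74 maxima lay at a WT-only region (60807013 to 60807605), where KO has no value. The 99th percentile over all peaks was 4.95 and 8.26 in KO and 6.15 and 6.76 in WT, so only the WT peaks of Cd74 and of the 3 chain genes passed it.

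**Figure D3:**
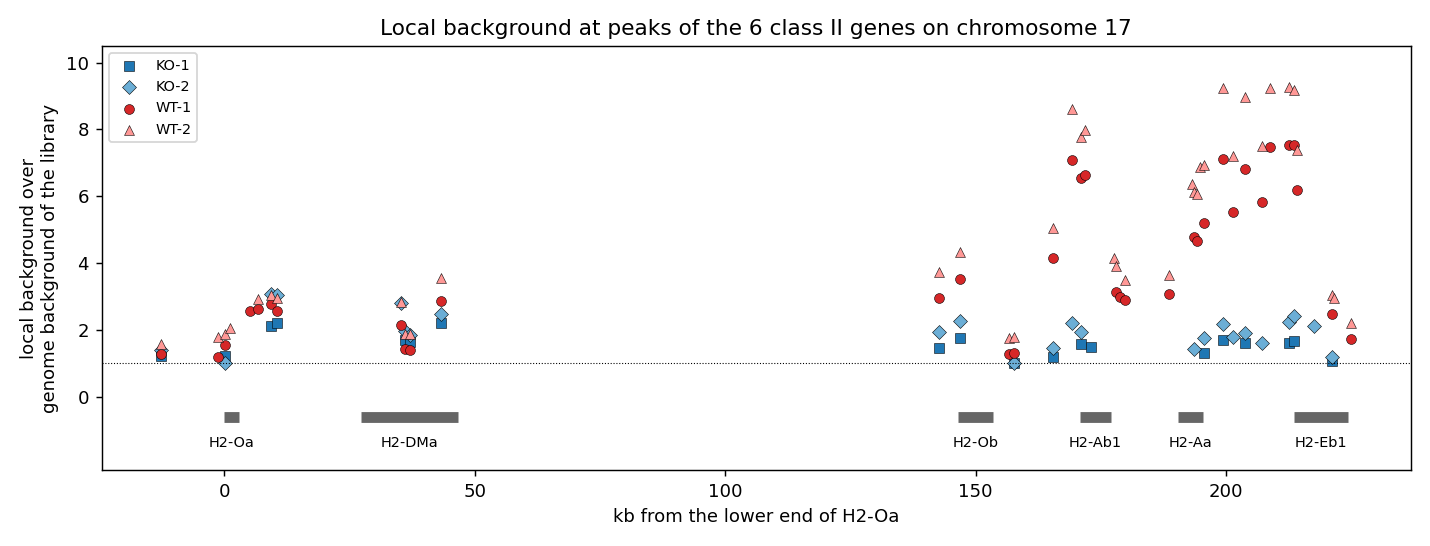
Local background at each peak of the 6 class II genes on chromosome 17, as a multiple of the genome background of its library, against distance in kb from the lower end of H2-Oa, with gene intervals as bars. WT symbols rise to between about 5 and 9 around H2-Ab1, H2-Aa and H2-Eb1, where KO symbols stay under 2.5, and WT and KO symbols lie together at H2-Oa and H2-DMa.

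Among all 26867 shared regions, 10 of the 100 with the highest WT over KO ratio of local background were at the 8 genes, and 7 of the 100 with the highest height ratio. The genes next in local background that are no members, named after their values were seen, were led by H2-DMb2, a beta chain of H2-DM, with a ratio of 3.63. Then came Bcl11a, a B cell and dendritic cell factor, with 3.31, Haao with 3.11 and H2-Eb2, a further class II beta chain, with 3.04. Irgc1 (3.01), Ccr7 (2.89), Flt3 (2.75) and Myo3b (2.72) followed. Peaks covered more of a gene in both WT libraries than in both KO libraries at 6 of the 8 genes: at Cd74 they covered 3.08% and 4.96% in KO and 22.2% and 31.4% in WT, and at H2-Ob 0.971%, 4.37%, 15.8% and 19.7%. Coverage was computed for the 8 genes alone, so the share of all genes that meet this rule is unknown. Over all regions 8.80% were WT-only and 1.78% KO-only, so other genes may meet it too. At H2-DMa coverage was 18.9%, 18.4%, 17.1% and 16.98%, slightly lower in WT, and at H2-Oa the genotypes overlapped, at 14.4%, 8.47%, 11.9% and 27.0%.

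The rest of the pathway was read from a list of 17 further class II genes, of which 16 were in the RefSeq table and 15 had a region. Of their 105 regions 22 were WT-only (21.0%) and 1 was KO-only. Most WT-only regions lay at Marchf1, a ligase that removes class II from the surface, with 9 of 24 regions, and at Cd83, which counters Marchf1, with 6 of 23. Cathepsin S (Ctss), which trims the invariant chain, and H2-Eb2 had 2 of 5 each. The median height ratio of the list's shared regions was 1.17, and of local background 1.08.

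The genes of MHC class I presentation, which shows peptides made within the cell, did not share the excess. Of 45 regions at 12 such genes 2 were WT-only (4.44%), at the peptide transporter gene Tap1 and the immunoproteasome gene Psmb9, and 1 was KO-only, at Nlrc5, the class I counterpart of Ciita. The median height ratio of their shared regions was 1.10 and of local background 0.951. Tap1 and Psmb9 lie within the class II locus, as do Tap2, with 0 WT-only of 6 regions, and Psmb8, with 0 of 1.

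Markers of B cells moved with the class II genes. Of 125 regions at 12 B cell genes 61 were WT-only (48.8%) and 1 was KO-only. They had 11 and 19 peaks in KO and 95 and 103 in WT, and summed scaled heights of 6.65, 8.08, 64.0 and 74.5. Without any peak were 7 of the 12 genes in KO-1, 3 in KO-2 and 0 in either WT library, and Ms4a1 and Fcer2a were among those without one in both KO libraries. Other genes of the list kept KO peaks. Pax5 had a peak at 4 and 6 of its 24 regions in KO and 14 and 19 in WT, and held the KO-only region. Cr2 had 2 and 2 of 9 in KO and 8 and 5 in WT. The 8 class II genes summed to 21.7, 21.5, 77.3 and 93.7 on the same scale. These sums hold listed peaks only, so they move with how many were listed. At the 8 B cell regions shared by every library the median height ratio was 2.65 and that of local background 1.68.

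At 8 dendritic cell genes, 10 of 35 regions were WT-only (28.6%) and 0 KO-only, with summed heights of 6.91 and 7.77 in KO and 18.2 and 17.8 in WT, and Xcr1 and Cd209a had no region. The median height ratio of this list's shared regions was 1.18 and that of local background 1.02. At 8 macrophage and monocyte genes, 19 of 72 were WT-only (26.4%) and 2 KO-only, with sums of 22.1, 24.5, 33.4 and 38.8, and Lyz2 had no region. Here the median height ratio of shared regions was 0.982 and that of local background 1.01. At 12 T cell genes, 7 of 129 regions were WT-only (5.43%) and 12 KO-only (9.30%), and every one of these genes had a peak in every library. Their summed heights ran the other way, at 93.3 and 99.9 in KO and 59.5 and 66.6 in WT, and the median height ratio of their shared regions was 0.660. The part of other cell types in the class II differences was not tested, and in libraries made from many cells a larger number of open cells and more open chromatin per cell cannot be told apart.

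**Figure D4:**
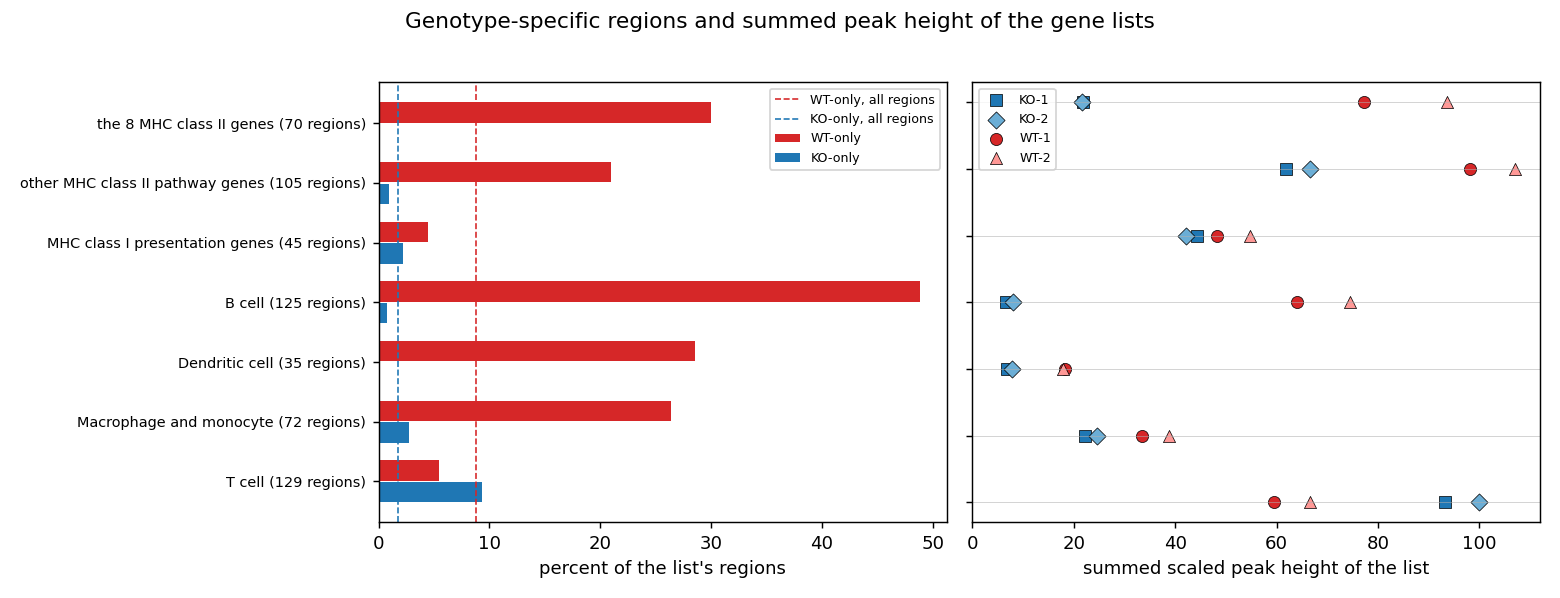
Left, percent of a gene list's regions that were WT-only (red) or KO-only (blue), with dashed lines at the percent of all regions; right, summed scaled height of each list's peaks in the 4 libraries. The 8 class II genes (30% WT-only) lie between the B cell list (48.8%) and the other class II pathway genes (21.0%), and the T cell list has its higher sums in the KO libraries.

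Among the 2986 other genes with at least 8 regions, the pattern of presence over the 4 libraries most like that of the 8 genes was found by the Euclidean distance between shares of regions with a peak. The nearest was Tmem170b, with a distance of 0.0285 over 16 regions and shares of 31.2% and 43.8% in KO and 75% and 87.5% in WT. Itgb3 followed at 0.0644, Plxnc1 at 0.0737, Nedd4 at 0.0741 and Sumf1 at 0.0742. With 4 libraries and few regions a gene, near matches of this kind are a description only.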

How the data were processed

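The data were 4 ATAC-seq peak lists, 1 a library, with 43078 and 61773 peaks in KO and 56852 and 61489 in WT. Per the submitters' processing notes, the authors used BWA, SAMtools, Picard, MACS2 and deepTools on GRCm38 (mm10); versions, settings and any shift for the transposase are not given in sources used here. The deposited fold enrichment is a ratio to the local background, and the −log10 p and its adjusted form −log10 q that the authors deposited come from the same comparison; the lowest −log10 q was just above 2. A deposited score per peak was left unused. Peak numbers were incomplete (1603 and 1681 numbers missing in KO and 1758 and 1900 in WT), so an absent peak can be a removed one. Without read totals the depth of a library is unknown, and values carry no counting interval.

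Merging, assignment to genes (a midpoint inside several genes went to the shorter interval; 85.0% of regions were assigned) and the motif search followed fixed rules, and the members and lists were chosen with earlier results of these data known. Where a library had several peaks in a region the strongest was used for fold and the highest for height and background, which were added after the first results of these data had been seen. A peak's tags N and local background λ were solved from fold = (N + 1)/(λ + 1) and the Poisson probability of more than N tags. The whole-number N left a mismatch of at most 0.00174 in −log10 p, while 1 tag more moved it by at least 0.0349. All of 20000 simulated peaks were recovered, but they were made with the same formula and pseudocount, so this checks the solving step alone. The values of N and λ rest on the caller's pseudocount of 1, which the simulation cannot check. The planned named items were the 8 members and every WT-only or KO-only region or region within 1 kb of a start. They also included the 5 genes of most similar presence and up to 4 genes a list by genotype-specific regions. That last rule was used for the class II and class I lists only. Genes of the cell type lists were named later, for having no region, no listed KO peak or, among B cell genes, several KO peaks. Others are said to be chosen later. The alternatives were stricter peaks, lists of equal length, other overlap and distance rules, Ciita left out, each library left out and a replicate block. Python 3.11.15, numpy 2.4.6, pandas 2.3.3 and scipy 1.17.1 were used. An item of one marker list is not reported here by name.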

Additional observations from a re-analysis of the deposited data

How the results depend on the processing

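WT-only regions at the 8 genes were 21 of 70, against 8.80% of all regions. They were 15 of 50 with peaks at −log10 q of at least 5 (13.5% of all), 15 of 38 at 10 (13.2%), 21 of 73 when an overlap of 50% of the shorter peak was required (8.62%) and 10 of 28 among the 20000 strongest peaks of each list (8.96%). With genes within 20 kb they were 21 of 70, within 2 kb 15 of 51, and without Ciita 14 of 53 (8.80% of all). The share of all regions under the 2 distance rules was not computed. Leaving out 1 library gave 21 to 34 WT-only regions, and all regions moved too: 21 of 68 without KO-1 (10.4% of all), 29 of 69 without KO-2 (17.8%), 34 of 67 without WT-1 (24.2%) and 26 of 60 without WT-2 (20.9%). KO-only regions then numbered 0 to 3, with 2 of 68 without KO-1 (22.3% of all) and 3 of 69 without KO-2 (11.8%). The difference of 31 regions with a peak stayed between 12.5 and 31 over these settings and between 27.5 and 35.5 with 1 library left out, always higher in WT. The replicate block also gave 31 regions, with an exact sign-flip permutation p of 0.5, the smallest 2 pairs allow. The labels tie same-numbered libraries by number alone, and their deviations correlated at -0.116 over 26867 regions. The crossed pairing, added later, again gave 31 regions.

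The median fold percentile of shared regions was 5.18 higher in WT, 4.47 to 8.03 higher with 1 library left out and 17.5 higher when −log10 q was ranked. Among the 20000 strongest peaks it was -13.9 over 9 regions, in the other direction, and the cause was not tested. Of the measures chosen after seeing the data, the height ratio of 2.44 was 2.35 with genome background as the scale and 2.19 to 2.96 with 1 library left out, and the local background ratio of 2.19 was 1.96 to 2.70. Giving the regions shared with Brd2 to H2-DMa left 21 WT-only regions of 73.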
